A study of Mus musculus with 6 samples.

Results

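The expression of 10 genes that control the transcription factor Nrf2 was followed in adipocytes that had been exposed to leukemia cell conditioned media (LCM). The genes were fixed by name, and each had a single transcript on the array that is assigned to no other gene. All 10 were therefore measured, among 14860 genes that have a transcript of their own. They comprise 2 activators (Nfe2l2 and Nfe2l1), 2 repressors (Bach1 and Bach2), 3 small Maf partners (Maff, Mafg and Mafk) and 3 adaptors of protein degradation (Keap1, Cul3 and Sqstm1). Maff, Mafg and Sqstm1 are also among the genes that the study listed as changed on these arrays, so their direction here is not independent evidence. The study listed genes at p under 0.05 and names no adjustment, a looser threshold than the adjusted p used here.

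The tested cultures were 3T3-L1 adipocytes in LCM for 24 hours (3 arrays), and the controls were 3T3-L1 adipocytes in regular media (3 arrays). 3T3-L1 is a mouse pre-adipocyte line, and both groups had been differentiated for 7 days. The sample labels attribute the LCM to 8093 cells, a mouse line of acute lymphoblastic leukemia that received IL-3 and beta-mercaptoethanol over 48 hours of conditioning, whereas the recipe for LCM in the methods names the human line BV173 and lists no such additives. Both sources give RPMI1640 with serum for LCM. The labels also give RPMI1640 for keeping the adipocytes, while the methods give DMEM for 3T3-L1 cells. It is not stated which of these was on the controls during the exposure, or whether the controls received IL-3 and beta-mercaptoethanol. Conditioning by leukemia cells, these additives and differences of the base medium therefore cannot be told apart. Values are log2 expression from RMA, and 3 arrays per group limit the precision.

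Nrf2, encoded by Nfe2l2, is held in the cytoplasm by Keap1, which links it to the ubiquitin ligase built on Cul3 and so directs it to the proteasome. Oxidants and electrophiles modify Keap1, and the p62 protein encoded by Sqstm1 can draw Keap1 into autophagy. Nrf2 that escapes binds antioxidant response elements in DNA as a dimer with a small Maf protein, at sites where Bach1 or Bach2 can sit instead and repress. Much of this control acts on the proteins, which arrays do not measure.

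The starts of 4 of the 10 genes carried TGACNNNGC, a form of the core of an antioxidant response element, and these windows are shown. Nrf2 and small Maf dimers could also bind at other forms or outside the windows, which was not tested. The search used TGACNNNGC on both strands of windows from 250 bases before to 50 bases after each start (RefSeq, GRCm38.p6). The sequences run 5′ to 3′ on the strand of the gene, with the match in capitals.
Nfe2l2, chr2:75704614-75704913, minus strand: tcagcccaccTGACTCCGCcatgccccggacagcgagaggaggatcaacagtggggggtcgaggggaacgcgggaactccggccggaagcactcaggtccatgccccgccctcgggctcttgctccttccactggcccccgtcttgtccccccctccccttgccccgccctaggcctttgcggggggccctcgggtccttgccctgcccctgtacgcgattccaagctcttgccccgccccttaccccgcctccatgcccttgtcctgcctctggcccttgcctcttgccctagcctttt
Maff, chr15:79346371-79346670, plus strand: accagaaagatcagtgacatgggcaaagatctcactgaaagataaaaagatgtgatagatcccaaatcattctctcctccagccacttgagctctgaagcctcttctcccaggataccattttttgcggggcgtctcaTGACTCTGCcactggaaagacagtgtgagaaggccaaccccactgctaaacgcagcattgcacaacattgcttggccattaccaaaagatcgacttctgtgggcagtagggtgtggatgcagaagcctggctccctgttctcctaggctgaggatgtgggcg
Mafg, chr11:120633498-120633797, minus strand: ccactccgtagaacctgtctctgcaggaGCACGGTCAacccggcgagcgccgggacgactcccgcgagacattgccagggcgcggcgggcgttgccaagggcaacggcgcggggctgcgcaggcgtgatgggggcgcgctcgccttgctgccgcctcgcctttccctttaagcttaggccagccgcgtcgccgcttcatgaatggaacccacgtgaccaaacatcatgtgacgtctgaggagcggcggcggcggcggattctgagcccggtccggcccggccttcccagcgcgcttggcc
Mafk, chr5:139791286-139791585, plus strand: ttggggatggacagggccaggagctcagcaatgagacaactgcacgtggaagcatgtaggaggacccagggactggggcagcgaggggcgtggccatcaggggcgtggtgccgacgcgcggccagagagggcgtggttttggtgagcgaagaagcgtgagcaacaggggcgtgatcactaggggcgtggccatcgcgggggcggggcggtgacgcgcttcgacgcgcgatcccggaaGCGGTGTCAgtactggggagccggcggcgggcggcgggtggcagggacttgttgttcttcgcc
The match began 240 bases before the start in Nfe2l2 and 112 bases before it in Maff, in both as written. It began 222 bases before the start in Mafg and 13 bases before it in Mafk, in both as the reverse complement. All 10 genes had a window, 16 windows in all because Nfe2l1 has 5 starts and Maff 3, and 4 of these 16 held the core, against 12.4% of all 32851 windows. The variant TGAGNNNGC occurred in Nfe2l1, Bach2 and Maff (17.6% of all windows), and the Maf half-site TGCTGA in Nfe2l1, Bach1 and Mafk (19.5% of all windows). In Nfe2l1 3 of the windows overlap and share their matches. None of these 3 motifs, which can overlap each other, was found in the windows of Keap1, Cul3 or Sqstm1. A match is a stretch of letters and no measured binding.

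Of the 10 genes, 3 rose with LCM and none fell (adjusted p under 0.05 from limma over all 14860 genes, n = 3 cultures per group). Nfe2l1 rose among the activators, Maff among the small Maf partners and Sqstm1 among the degradation adaptors, and neither repressor passed. Over all genes tested, 2.29% rose and 1.97% fell, 4.26% in either direction. These were 341 higher and 292 lower genes, a split that became 232 higher and 408 lower when the array medians were set equal. Before adjustment, limma put 4 of the 10 higher and 0 lower at p under 0.05, against 9.25% of all genes higher and 10.3% lower. By the methods' t-test in its unpaired form, 5 were higher and 0 lower at an unadjusted p under 0.05, against 8.26% and 9.26% of all genes, and 0 passed after adjustment. In 5 genes every LCM value lay above every control value, which held for 12.8% of all genes, and in none did every LCM value lie below, against 14.7% of all genes. Their median log2 fold change was 0.26, beside -0.03 for all genes tested. None of the 3 rises passed in every subset of 5 arrays, and the subsets are given with each gene.

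**Figure D1:**
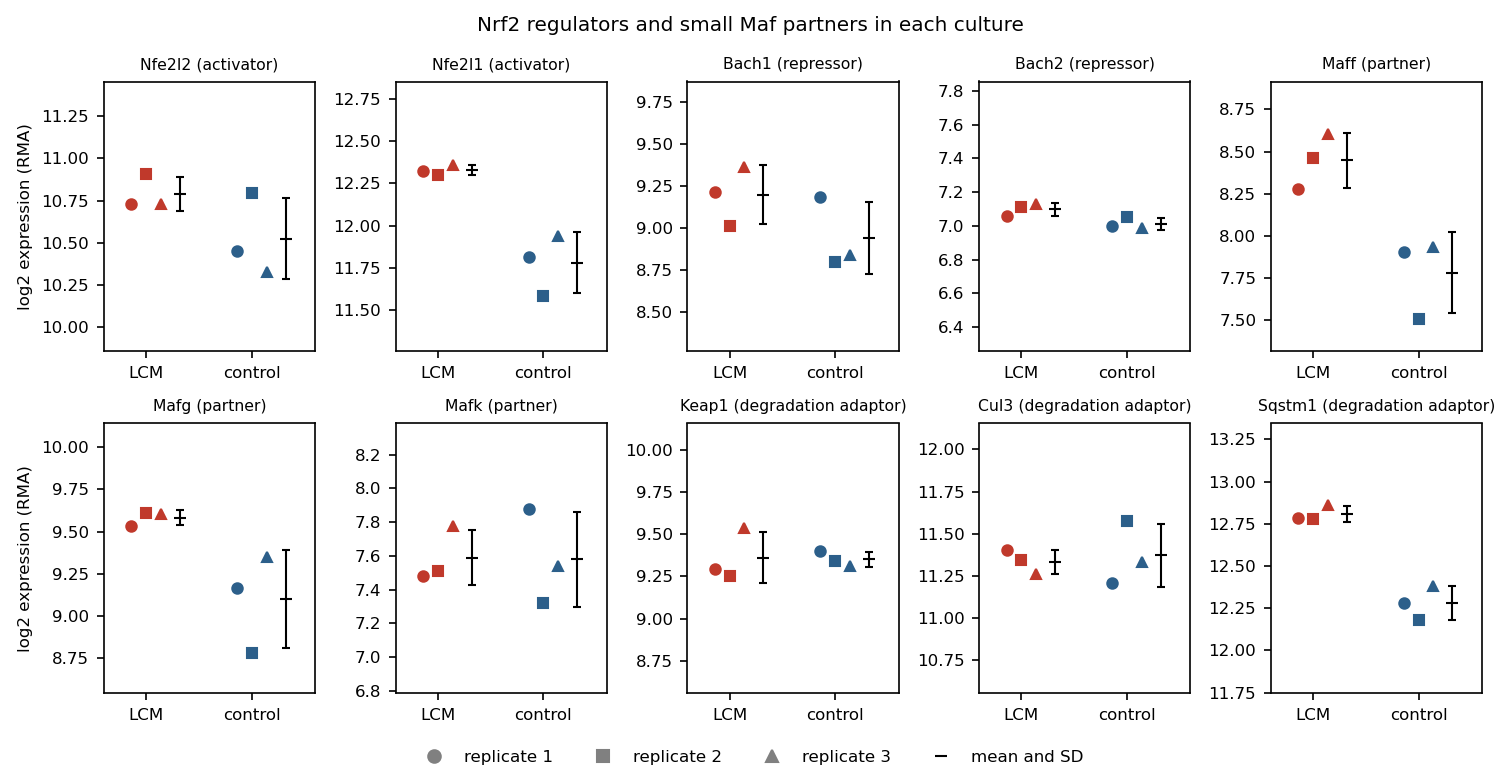
Log2 expression (RMA) of the 10 genes, with a point for each of 3 LCM cultures (left in each panel, red) and 3 control cultures (right, blue), and bars for the mean and SD. Every panel spans the same range of log2 units. LCM and control values are apart in Nfe2l1, Maff, Mafg, Sqstm1 and, narrowly, Bach2.

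Nfe2l2, which encodes Nrf2 itself and lies at chr2:75675513-75704663 (GRCm38.p6, as for the genes that follow), did not pass. Its log2 expression was 10.73, 10.91 and 10.73 in the LCM cultures, against 10.45, 10.79 and 10.33 in the controls. Control replicate 2 lay within the range of the LCM cultures, and the other controls lay below it. The log2 fold change was 0.26 (SE 0.13, 95% confidence interval -0.04 to 0.57, adjusted p = 0.311 from limma). Without control replicate 2 the log2 fold change was 0.40 and the gene passed (adjusted p = 0.0380 from limma), and in the other 5 subsets that leave out an array it did not.

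Nfe2l1, which encodes Nrf1, a relative of Nrf2 that is anchored in the endoplasmic reticulum and known for inducing proteasome genes, rose 1.46-fold (chr11:96817414-96829968). Its log2 expression was 12.32, 12.30 and 12.36 in LCM, against 11.82, 11.58 and 11.94 in the controls. The LCM cultures lay within 0.06 of each other, whereas the controls spanned 0.36, and the groups did not overlap. The log2 fold change was 0.55 (SE 0.10, 95% confidence interval 0.31 to 0.79, adjusted p = 0.0304 from limma). It passed without control replicate 2 or 3 (adjusted p = 0.0162 and 0.0342) and in none of the other 4 subsets, where the adjusted p reached 0.136, and with arrays centred on their median the adjusted p was 0.0519 from limma.

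Bach1 (chr16:87698954-87733346), a heme-sensing repressor that competes with Nrf2 for its sites, had log2 values of 9.21, 9.01 and 9.36 in LCM and 9.19, 8.80 and 8.84 in the controls. Control replicate 1 lay among the LCM values. Its log2 fold change of 0.26 did not pass (SE 0.13, 95% confidence interval -0.06 to 0.57, adjusted p = 0.346 from limma). Bach2 (chr4:32238413-32586109), a relative best known from B lymphocytes, had log2 values of 7.06, 7.11 and 7.13 in LCM and 7.00, 7.05 and 6.98 in the controls. The groups were apart by less than 0.01, and the log2 fold change was 0.08 (95% confidence interval -0.07 to 0.24, adjusted p = 0.551 from limma). The mean of Bach2 stood at the 41.6 percentile of all transcripts, the lowest of the 10 genes.

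Maff (chr15:79346621-79359078) encodes MafF, a small Maf protein that lacks a transactivation domain of its own and pairs with Nrf2 or Bach1. It rose 1.59-fold, the largest fold change of the 10 genes. Its log2 expression was 8.28, 8.46 and 8.61 in LCM, against 7.91, 7.51 and 7.93 in the controls. All LCM values lay above all controls, and control replicate 2 was 0.41 below the mean of the other controls. The log2 fold change was 0.67 (SE 0.14, 95% confidence interval 0.34 to 0.99, adjusted p = 0.0448 from limma). It passed without control replicate 2 (adjusted p = 0.0310) and in none of the other 5 subsets, where the adjusted p lay at up to 0.175. It did not pass after quantile normalization was applied again (adjusted p = 0.0654 from limma) or with arrays centred on their median (adjusted p = 0.0646).

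Mafg (chr11:120625117-120634955), the gene of MafG, had log2 values of 9.53, 9.61 and 9.60 in LCM, against 9.17, 8.78 and 9.35 in the controls. The groups did not overlap, and the controls spanned 0.57 where the LCM cultures spanned 0.08. The log2 fold change of 0.48 (SE 0.14, 95% confidence interval 0.16 to 0.81) did not pass. The unadjusted p was 0.00976 and the adjusted p 0.110 from limma. Control replicate 2 was 0.48 below the mean of the other controls. Without it the log2 fold change was 0.33, with an adjusted p of 0.0531 from limma. Mafk (chr5:139791536-139802653), the gene of MafK, had log2 values of 7.48, 7.51 and 7.78 in LCM and 7.88, 7.32 and 7.54 in the controls. The control values enclosed those of LCM, and the log2 fold change was 0.01 (95% confidence interval -0.35 to 0.37, adjusted p = 0.980 from limma), a sign that turned with arrays centred on their median (-0.039).

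Sqstm1 (chr11:50200152-50210820) encodes p62, an autophagy receptor that binds Keap1 and is itself a target of Nrf2. It rose 1.44-fold, with log2 values of 12.78, 12.78 and 12.86 in LCM, against 12.28, 12.18 and 12.38 in the controls. All LCM values lay above all controls, and the gap between the groups was wider than the range of either. The log2 fold change was 0.53 (SE 0.08, 95% confidence interval 0.34 to 0.71, adjusted p = 0.0167 from limma). It passed without control replicate 2 or 3 (adjusted p = 0.0148 and 0.0330), and in the other 4 subsets the adjusted p reached 0.0913 and did not pass.

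Keap1 (chr9:21229730-21239332), the sensor and adaptor that binds Nrf2, had log2 values of 9.30, 9.25 and 9.54 in LCM and 9.40, 9.34 and 9.31 in the controls. Only LCM replicate 3 lay above the controls. The log2 fold change was 0.01 (SE 0.09, 95% confidence interval -0.21 to 0.23, adjusted p = 0.965 from limma), and it was -0.039 with arrays centred on their median. Cul3 (chr1:80264923-80340690), the scaffold of the ligase, had log2 values of 11.40, 11.34 and 11.26 in LCM and 11.21, 11.58 and 11.33 in the controls. The LCM values lay within the range of the controls, and the log2 fold change was -0.04 (SE 0.11, 95% confidence interval -0.29 to 0.21, adjusted p = 0.882 from limma).

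**Figure D2:**
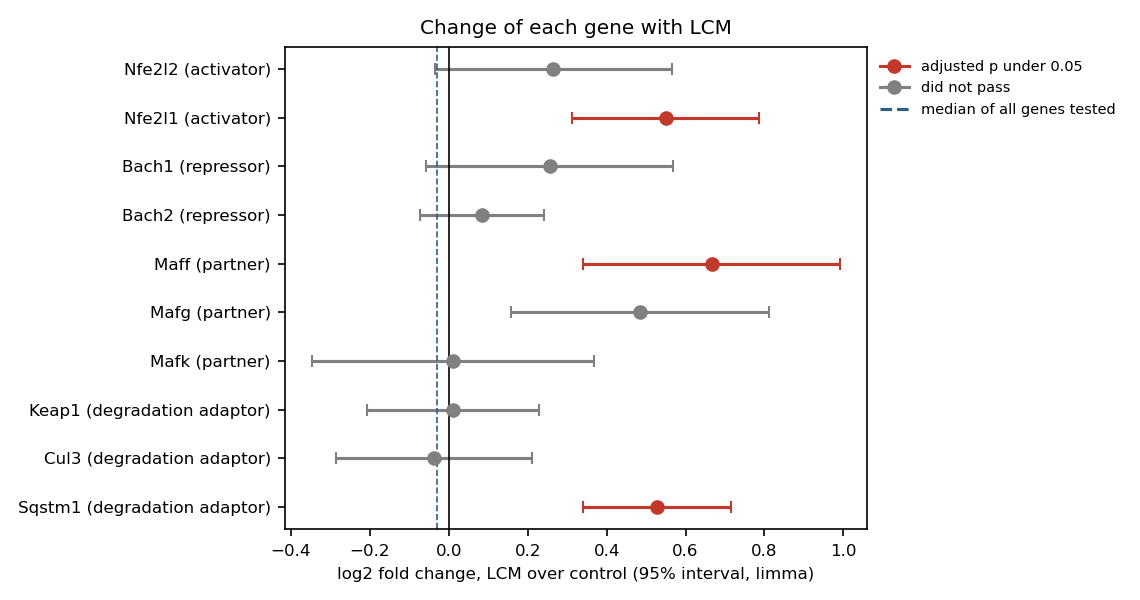
Log2 fold change of each gene, LCM over control, with its 95% confidence interval from limma; red points passed and the dashed line is the median of all genes tested. Nfe2l1, Maff and Sqstm1 passed at 0.55, 0.67 and 0.53, and the intervals of Nfe2l2, Bach1, Bach2, Mafk, Keap1 and Cul3 include 0.

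The controls were more spread out than the LCM cultures. The SD among LCM cultures had a median of 0.09 over the 10 genes and that among controls 0.20, against 0.08 and 0.13 over all genes tested. The controls had the larger SD in 8 of the 10, and in 10721 of all 14860 genes. Control replicate 2 was the lowest control for 6 genes and the highest for Nfe2l2, Cul3 and Bach2. It lay 0.40 above the mean of the other controls for Nfe2l2 and 0.30 above it for Cul3. It lay 0.39 below that mean for Mafk, 0.30 below for Nfe2l1, 0.21 below for Bach1 and 0.15 below for Sqstm1. Its median difference from the other controls was -0.18 over the 10 genes and -0.05 over all genes. Its correlation with the other controls was 0.980 and 0.984 over all transcripts, the lowest within either group. Without it 4 of the 10 genes rose, namely Nfe2l2, Nfe2l1, Maff and Sqstm1, beside 680 that rose and 652 that fell of all genes. Without control replicate 3, Nfe2l1 and Sqstm1 rose, and without control replicate 1 or any LCM replicate none of the 10 passed.

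To ask whether genes that share a role or act on each other moved apart, the difference of their log2 values was taken within each array, which removes any shift of a whole array. Of 9 pairs compared, none passed, since 0.1 is the smallest two-sided p that an exact permutation test allows at this group size. In 4 pairs the groups did not overlap, at an exact two-sided p of 0.1 and an adjusted p of 0.225 over the 9 pairs. The 3 pairs of small Maf genes share members and are not independent. How often the groups are apart over all pairs of genes was not counted. Maff minus Mafk was 0.80, 0.95 and 0.83 in LCM, against 0.03, 0.19 and 0.39 in the controls, a shift of 0.66 toward Maff. Mafg minus Mafk averaged 1.99 ± 0.15 in LCM and 1.52 ± 0.26 in the controls (SD, n = 3 each), and LCM replicate 3 and control replicate 3 nearly met at 1.83 and 1.81. Maff minus Mafg shifted by only 0.18, and LCM replicate 1 and control replicate 1 nearly met at -1.25 and -1.26. Sqstm1 minus Keap1 was 3.49, 3.52 and 3.33 in LCM, against 2.88, 2.84 and 3.07 in the controls, a shift of 0.52 toward Sqstm1.

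Of the activators and repressors, only Nfe2l2 was set against Bach1, and that difference did not shift beyond its spread. Nfe2l1 and Bach2 were not set against a gene of the opposite role. At this group size the test could not call any pair. Nfe2l2 minus Bach1 averaged 1.59 ± 0.27 in LCM and 1.58 ± 0.37 in the controls (SD, n = 3 each, exact permutation p = 0.9). Nfe2l2 minus Keap1 averaged 1.43 ± 0.23 in LCM and 1.17 ± 0.24 in the controls, with overlapping groups (exact permutation p = 0.3, n = 3 each). Nfe2l2 minus Nfe2l1 shifted by -0.28, with an exact permutation p of 0.3, and Bach1 minus Bach2 by 0.17, also at 0.3. With an array left out, the first of these ranged from -0.46 to -0.05, which it reached without control replicate 2, and the second from 0.08 to 0.30. Keap1 minus Cul3 shifted by 0.05 (exact permutation p = 0.8), and its sign and that of Nfe2l2 minus Bach1 turned in some subsets that leave out an array.

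**Figure D3:**
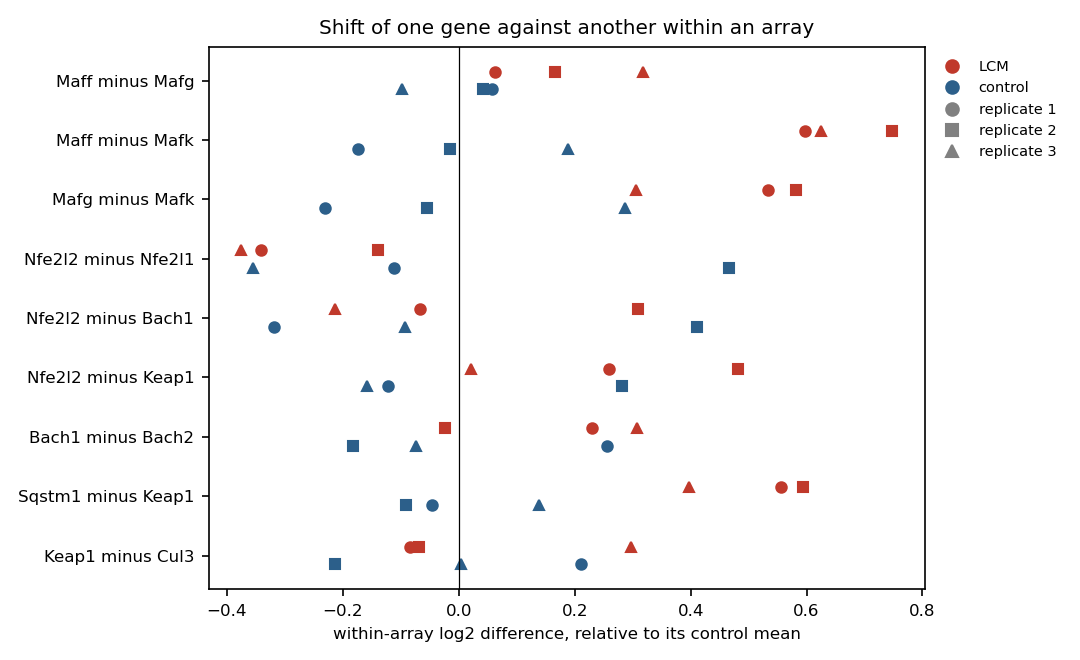
Difference of log2 values between 2 genes within each array, less the mean of that difference over the controls, for 3 LCM arrays (red, upper row of each pair) and 3 control arrays (blue, lower row). Maff minus Mafk and Sqstm1 minus Keap1 show no overlap, Mafg minus Mafk and Maff minus Mafg are apart only narrowly, and in the other 5 pairs the groups mix.

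The genes whose 6 values ran most like those of a gene that rose were sought by the root mean square difference of log2 values, each gene centred on its own mean. For Nfe2l1 they were Trip10, an adaptor protein of Cdc42, Fam162a, a mitochondrial protein induced by hypoxia, and Dusp12, a phosphatase, at 0.0251, 0.0260 and 0.0333. For Sqstm1 they were Sdc4, a syndecan of the cell surface, Ift172, a part of the transport machinery of cilia, and Rnf13, a membrane-bound ubiquitin ligase, at 0.0299, 0.0303 and 0.0313. For Maff the nearest genes were less close, namely Atp2a3, a calcium pump, Neu1, a lysosomal sialidase, and Gtpbp2, a GTP-binding protein, at 0.0630, 0.0643 and 0.0694.

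Other genes of the pathway were grouped by role, 99 in all beside the 10, of which 16 rose and 1 fell by limma, with a median log2 fold change of 0.05. Over all genes tested, 2.29% rose and 1.97% fell. Before adjustment limma put 9.25% of all genes higher and 10.3% lower, and the methods' t-test, unpaired, 8.26% and 9.26%. The counts of each list and of the markers below are to be read beside these shares. Of 22 classic targets of the antioxidant response element that were listed, 16 were measured. Gclm and Txnrd1, which the study listed as higher, were not among the genes tested here. Of the 16, 9 rose and none fell, with a median log2 fold change of 0.40. Without adjustment limma placed 11 of them higher and 3 lower at p under 0.05. The lower ones were Taldo1, Cat and Aox1, at log2 fold changes of -0.67, -0.35 and -0.26 (adjusted p = 0.0842, 0.0734 and 0.101 from limma). After adjustment 2 targets passed by the methods' t-test, unpaired. Hmox1, the heme-degrading enzyme that Bach1 represses, rose 2.72-fold, with log2 values of 12.48, 12.51 and 12.69 in LCM, against 11.15, 10.98 and 11.22 in the controls. Abcc1, which pumps glutathione conjugates out of cells, was up 1.98-fold, Gclc, which makes the precursor of glutathione, 1.97-fold, and Nqo1, a quinone reductase, 1.95-fold. Hmox1 passed in all 6 subsets that leave out an array, Gclc and Abcc1 in the 3 that leave out a control, and Nqo1 without control replicate 2 or 3. Blvrb, Ephx1, Srxn1, Pgd and Ugdh each rose as well. Blvrb and Ephx1 passed in 2 subsets each, and Srxn1, Pgd and Ugdh passed only in the subset without control replicate 2. Hmox1, Abcc1, Gclc, Nqo1 and Ephx1 are among the genes that the study listed as higher on these arrays, and Cat and Aox1 as lower. Their direction is not independent evidence.

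Among 8 other leucine zipper factors that can pair with small Maf or Bach proteins or with Nrf2, 2 rose and none fell (median log2 fold change 0.18). Unadjusted limma p was under 0.05 for 3 higher and 1 lower gene, and 2 passed by the methods' t-test, unpaired. Fosl2, a Fos relative, rose 1.84-fold (log2 fold change 0.88, SE 0.09, adjusted p = 0.00665 from limma). Atf4, the main factor of the amino acid response and a gene the study also listed, rose 1.72-fold (adjusted p = 0.00732). Fosl2 passed in all 6 subsets, and Atf4 in all but that without LCM replicate 3. Jun, which the study listed too, did not pass at a log2 fold change of 0.17 (unadjusted p = 0.0462, adjusted p = 0.246 from limma). The lower gene was Fosl1, which the study listed as lower. It did not pass at -0.19 (unadjusted p = 0.0320, adjusted p = 0.203 from limma). Fos, at 0.06 (adjusted p = 0.754), did not pass either.

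Of 9 proteins that disturb the binding of Keap1 and Nrf2, 2 rose and 1 fell (median log2 fold change 0.05), and 0 passed by the methods' t-test, unpaired, after adjustment. Sesn2, a sestrin that promotes the removal of Keap1 through p62, rose 1.48-fold, with log2 values of 8.80, 8.91 and 8.97 in LCM, against 8.36, 8.25 and 8.38 in the controls. Cdkn1a, whose product p21 binds Nrf2, rose 1.42-fold (adjusted p = 0.0254 from limma). The sestrin Sesn1 moved the other way and fell by 0.34 on the log2 scale (SE 0.07, adjusted p = 0.0447 from limma). Cdkn1a and Sesn1 passed without control replicate 2 and in none of the other 5 subsets. Sesn2 passed without control replicate 2 or 3.

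Of 10 autophagy adaptors and the ATG8 proteins they bind, the partners of p62 in autophagy, Gabarapl1 rose and none fell (median log2 fold change 0.08). Unadjusted limma p was under 0.05 for 3 higher and 0 lower genes, and after adjustment 0 passed by the methods' t-test, unpaired. Gabarapl1, an ATG8 protein of the autophagosome, rose 1.99-fold, with log2 values of 10.30, 10.23 and 10.39 in LCM, against 9.47, 9.10 and 9.39 in the controls, and passed in all subsets but that without LCM replicate 3. Nbr1, an adaptor built like p62, differed by -0.11 on the log2 scale (adjusted p = 0.464), and Map1lc3b, which encodes LC3B, by -0.06 (adjusted p = 0.794).

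Nrf1 must be drawn from the endoplasmic reticulum and cut before it acts. Of 5 genes of that handling, Sel1l, a partner of the ligase that extracts and destroys Nrf1, rose 1.56-fold (adjusted p = 0.00958 from limma) and none fell in limma (median log2 fold change -0.03). Unadjusted limma p was under 0.05 for 2 higher and 2 lower genes. The methods' t-test, unpaired, called Sel1l and also a fall of Hcfc1, a cofactor that carries the enzyme which stabilizes Nrf1, at a log2 fold change of -0.23 (limma adjusted p = 0.112). The log2 values of Sel1l were 11.72, 11.75 and 11.73 in LCM, against 11.14, 10.97 and 11.16 in the controls. Sel1l passed in the 3 subsets that leave out a control. Ngly1, which strips sugars from Nrf1, differed by -0.25 on the log2 scale (adjusted p = 0.160). None of the 26 proteasome subunits, the known targets of Nrf1, passed, and their median log2 fold change was 0.03. They ranged from -0.28 for Psmc5 (adjusted p = 0.0849) to 0.27. Unadjusted p was under 0.05 for 0 higher and 2 lower subunits in limma and in the methods' t-test, unpaired, which called 0 after adjustment. Of all genes, 9.25% were higher and 10.3% lower in limma before adjustment.

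Of 8 coactivators, corepressors and kinases of Nrf2, Prkcd, a protein kinase that phosphorylates Nrf2 and another gene the study listed, rose 1.40-fold (adjusted p = 0.0295 from limma) and none fell (median log2 fold change 0.10). It passed without control replicate 2 only. Unadjusted limma p was under 0.05 for 2 higher genes and 1 lower gene, and the methods' t-test, unpaired, called 0 after adjustment. In 3 further lists limma and the methods' t-test, unpaired, called 0 genes after adjustment. Of 8 other cullins and their RING partners (median log2 fold change -0.01), none was under 0.05 unadjusted. The smallest adjusted p there was 0.352, that of Rnf7, a RING subunit. Of 6 genes that control Nrf2 or Bach1 turnover without Keap1 (median log2 fold change -0.11), unadjusted p was under 0.05 for 1 higher and 1 lower in limma and for 0 higher and 2 lower in the methods' t-test, unpaired. Skp1, a subunit of the ligase that takes up Nrf2 phosphorylated by Gsk3b, differed by -0.40 on the log2 scale (adjusted p = 0.0730). Of 4 relatives of Nrf2 and of the large Mafs (median log2 fold change 0.00), none was under 0.05 unadjusted, and Nfe2, a relative of Nrf2 in blood cells, differed by 0.16 on the log2 scale (adjusted p = 0.469).

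**Figure D4:**
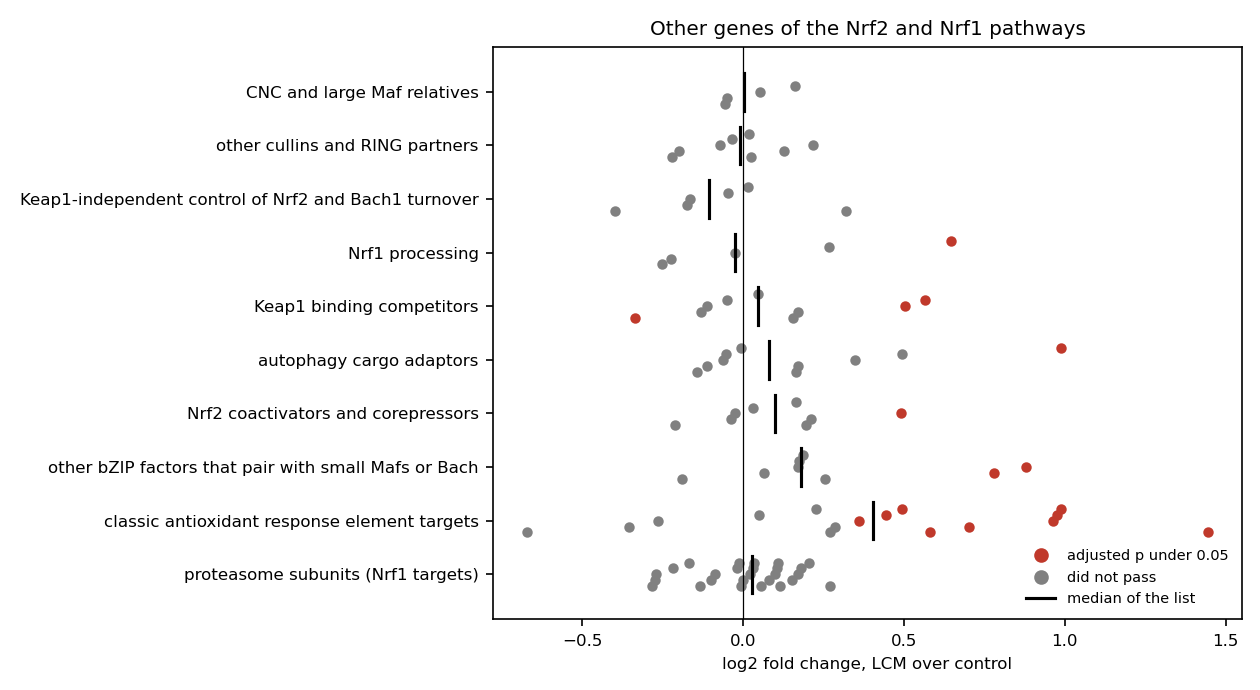
Log2 fold change, LCM over control, of each measured gene in 10 lists of the Nrf2 and Nrf1 pathways, with a bar for the median of each list; red points passed in limma. Hmox1, at 1.45, is the point farthest to the right, and 9 of 16 antioxidant response element targets passed while 0 of 26 proteasome subunits did.

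The cultures expressed adipocyte markers in both groups. The log2 of their summed intensities, in which bright markers weigh most, was 14.89 to 15.01 in LCM and 15.39 to 15.44 in the controls. Of these 9 markers, 3 fell (Adipoq, Cd36 and Cidec) and none rose. Each of the 3 passed without control replicate 2 and in none of the other 5 subsets. All 9 had negative log2 fold changes, -0.59 to -0.20, each at an unadjusted p under 0.05 from limma, and 6 of them by the methods' t-test, unpaired, which kept 1 after adjustment (Pparg). In such bulk samples fewer adipocytes and less of their RNA per cell cannot be told apart. Of 6 pre-adipocyte markers none passed (log2 of summed intensities 12.81 to 13.02 in LCM and 12.94 to 13.08 in the controls). Unadjusted p was under 0.05 for 0 higher and 2 lower of them in limma and in the methods' t-test, unpaired. Of 7 markers of B-lineage leukemia cells, none passed and none was under 0.05 unadjusted by either test. The log2 of their summed intensities was 11.38 to 11.56 in LCM and 11.51 to 11.78 in the controls. In both groups 6 of the 7 lay below the mean of all genes, the exception being Ebf1, which adipocytes also express. Of 4 macrophage markers, Cd68 rose 1.36-fold, passing without control replicate 2 or 3 and in none of the other 4 subsets, and none fell. The log2 of their summed intensities was 8.55 to 8.69 in LCM and 8.31 to 8.45 in the controls. Adgre1, which defines mouse macrophages, averaged 4.81 in LCM and 4.87 in the controls. The part of these cell types in the changes of the 10 genes was not tested.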

How the data were processed

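Gene expression was measured on Affymetrix Mouse Gene ST arrays in 3T3-L1 adipocytes, 3 arrays with LCM and 3 with regular media. The authors ran RMA and deposited its log2 values (background correction, quantile normalization and summary of probes), a column per array and without pooling of replicates. RMA version, settings and genome build: not given in the sources used here. Transcripts were named through the array platform's annotation. Of 23332 transcripts, 14996 had a single symbol and were kept, 1019 had several and 7317 had none listed. Where a gene had several transcripts, the one of highest mean over all 6 arrays was kept, which mattered for 135 of 14860 genes and for none of the 10 described.

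LCM and control were compared with limma 3.58.1 in R 4.3.3 (lmFit and eBayes, two-sided, no block), with Benjamini-Hochberg adjustment over the 14860 genes and a threshold of 0.05. The methods name no test for arrays, and the paired t-test of their statistics section was an alternative, as was its unpaired form. No filter on low values was applied. Pairs of genes were compared with exact permutation tests. Lists were described by counts and medians. All 10 genes were named, with up to 4 called genes of each list (otherwise the gene with the smallest adjusted p), Hmox1, Nqo1, Gclc and the 3 nearest genes of each gene that rose. Jun, Fosl1, Fos, Nbr1, Map1lc3b, Ngly1, Hcfc1, Ephx1, Blvrb, Srxn1, Pgd, Ugdh, Taldo1, Cat and Aox1 were named after their values were seen, as were the markers. The genes and lists were chosen with earlier results of these data known. The labels call the cultures biological replicates. The limma p-values set the difference of group means against the spread between cultures, with each gene's variance drawn toward that of all genes. The fit was also run on simulated data, drawn with the same SD in both groups of a gene. The real controls were more spread out than the LCM cultures, so that run does not cover this feature. Python 3.11.15, pandas 2.3.3, scipy 1.17.1 and matplotlib 3.10.9 were used.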

Additional observations from a re-analysis of the deposited data

How the results depend on the processing

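The log2 fold changes of Nfe2l2, Nfe2l1, Bach1, Bach2, Maff, Mafg and Sqstm1 were positive in every alternative run. With a single array left out, the range was 0.17 to 0.40 for Nfe2l2, 0.45 to 0.63 for Nfe2l1, 0.53 to 0.75 for Maff, 0.48 to 0.58 for Sqstm1, -0.12 to 0.16 for Mafk, -0.077 to 0.066 for Keap1 and -0.12 to 0.064 for Cul3. In these subsets 0 to 4 of the 10 genes rose, as did 39 to 680 and fell 21 to 652 of all genes, and 2 to 17 of the other pathway genes rose and 0 to 5 fell. The methods' t-test called 0 of the 10 genes in the paired or unpaired form. The paired form called 0 genes in all, in either direction, and 0 pathway genes, with 1761 genes at an unadjusted p under 0.05. The unpaired form called 104 higher and 66 lower, with 5 higher and 1 lower among the pathway genes. Adjusted p by the paired and unpaired forms was 0.357 and 0.116 for Nfe2l1 (log2 fold change 0.55), 0.434 and 0.172 for Maff (0.67) and 0.314 and 0.0627 for Sqstm1 (0.53). With all 23332 transcripts in the fit, 0 of the 10 genes passed (adjusted p 0.0803, 0.105 and 0.0519 for the same genes), 173 rose and 102 fell in all, and 9 pathway genes rose and 0 fell. With arrays centred on their median 1 of the 10 passed, Sqstm1, with Nfe2l1 at 0.50 and Maff at 0.62, 2 pathway genes fell, and Mafk and Keap1 turned to -0.039 each. With quantile normalization again, Maff at 0.62 did not pass, and Mafk and Keap1 turned to -0.034 and -0.010. Array weights gave 5 of the 10, adding Nfe2l2 at 0.39 and Mafg at 0.39, with 889 higher and 975 lower in all, 9 pathway genes lower, and signs turned for Mafk (-0.16), Keap1 (-0.043) and Cul3 (0.061). The filters at the 25th percentile and the median of all transcripts gave 2 and 5 pathway genes that fell, where fewer genes were tested. The cause of any of these changes was not tested.

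Same-numbered LCM and control arrays deviated together with correlations of -0.23, 0.06 and 0.11 over genes. Arrays of different number gave -0.28 to 0.28, so this check cannot tell whether equal numbers mark pairs. With the replicate block, 2 of the 10 genes rose, Maff (0.67) being lost with a limma adjusted p of 0.0548, 173 rose and 151 fell of all genes, and 0 pathway genes fell. With an array left out, Nfe2l2 minus Bach1 ranged from -0.15 to 0.22, Keap1 minus Cul3 from -0.076 to 0.15 and Maff minus Mafk from 0.57 to 0.75. Bach2 and Mafk had no value under the filter at the median. Counts for single lists stayed within 1.5 times in 300 comparisons, were lower in 44 and higher in 16. The 300 include comparisons of 0 with 0, which could hardly move. Of the antioxidant response element targets, 9 rose with all arrays and 1 to 10 with an array left out. Group sizes of 3 limit what can be detected.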
